A study of Mus musculus with 6 samples.

Results

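The genes of the glutamate receptors and of their auxiliary subunits were followed across the cell classes of the mouse hippocampus and across 3 groups of mice. The set held 35 genes, chosen by symbol, of the 32285 genes listed in the count matrices: 4 genes of AMPA receptors, 5 of kainate receptors, 7 of NMDA receptors, 1 delta receptor gene, 7 metabotropic receptor genes and 11 auxiliary subunit genes. All 35 were matched by gene ID. The libraries came from dissociated hippocampal tissue of mice aged 6 months and were made with droplet chemistry that reads the 3′ ends of transcripts. One group, 5xFAD_Ab3FTnAu, was 5×FAD mice given Aβ3FTnAu, which the series title describes as a protein and gold nanostructure aimed at amyloid-β plaques. The second group, 5xFAD_PBS, was 5×FAD mice given PBS, the vehicle. The third, WT_PBS, was wild-type littermates given PBS. Each group had 2 samples. The 5×FAD line carries human transgenes driven by the neuronal Thy1 promoter, so it models plaque build-up from neuronal overexpression. It is not stated in the sources used here whether a group's 2 samples are 2 animals, and the p-values measure only the spread between these samples.

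Fast excitatory transmission in the hippocampus runs through AMPA receptors, tetramers of GluA subunits, while NMDA receptors need both glutamate and depolarisation to open and admit calcium, and kainate receptors act on both sides of the synapse. Metabotropic receptors signal through G proteins, and the auxiliary subunits (TARPs, cornichons, Shisa proteins and Neto proteins) set how receptors travel, open and desensitise. The granule cells of the dentate gyrus project by mossy fibres to CA3, CA3 projects to CA1, and CA2 lies between them.

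Cells were assigned to classes from marker transcripts among which there was no member of the set. The 7 classes used were oligodendrocyte precursors (called precursors here, 1083 cells), astrocytes (951), interneurons (2766), CA2 (297), CA3 (1600), CA1 (3048) and granule cells (3780), together 13525 of the 41656 cells kept, or 32.5%. In each class at least 1 marker of its own list stood among the 10 leading genes by fold. Those markers also set the classes, so their rank is no separate check of class identity. A class of 3453 oligodendrocytes was set beside the glial classes. It is no plain gauge of neuronal RNA, since it held more Grm3 than any neuron class. The libraries held between 32528417 and 76780861 UMIs, and a pair of libraries shared between 9 and 45 barcodes. UMIs were summed per sample and class, from 61695 in the smallest astrocyte sum to 7103825 in the largest granule sum, and levels are given as CPM, the share of a gene in the UMIs of that sum on the usual scale. A sum needed at least 20 cells, and the CA2 sum of 5xFAD_PBS sample 1 (14 cells) was left out of every value and fit, so that CA2 has 5 sums. CPM values of different genes are not compared, since transcript length and 3′ capture differ between genes.

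The 2 WT_PBS libraries stood apart from each other. A chi-square statistic per degree of freedom was taken between the 2 samples of a group, with the cells of the classes used pooled. The statistic was 3.54 for 5xFAD_Ab3FTnAu, 3.52 for 5xFAD_PBS and 33.3 for WT_PBS. Because classes were pooled, it also takes in the share of each class and the depth. It is therefore not a measure of expression difference alone. Among the members, WT_PBS sample 1 was above sample 2 in all 5 neuron classes for Cnih2 (2.75 to 3.84 times), Gria3 (1.36 to 1.60 times), Grin1 (1.31 to 1.42 times) and Grik5 (1.19 to 1.74 times), and below it in all 5 for Grin2a, Shisa9, Gria1, Shisa6, Grik2, Grid1 and Grm3. The 5 classes come from the same 2 libraries and are not separate observations. The share of all genes that differ this way in all 5 is not given here. Barcodes with no mitochondrial UMI made up 66.8% and 64.6% of those kept for 5xFAD_Ab3FTnAu, 23.0% and 17.8% for 5xFAD_PBS, and 58.1% and 29.8% for WT_PBS. Within samples, barcodes without a mitochondrial UMI were set against those with one. Of the 28 members tested, 0 passed the threshold of edgeR in granule cells (1 at an unadjusted p under 0.05; DESeq2 also called 0) and 0 in CA1 (2 at that p), where 0.838% and 0.0646% of all genes did. Over all genes tested, 691 of 9306 in granule cells and 485 of 10843 in CA1 had that unadjusted p.

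Field identity came first. The question was which receptor genes differ between the hippocampal fields and cell types, and each contrast was fitted within samples with edgeR's quasi-likelihood test, the p-values being adjusted by Benjamini-Hochberg over all genes tested (edgeR adjusted p, threshold 0.05). Log2 fold changes are given ± SE. Of the 35 members, 33 passed the filter on low counts. Grm6 had 1 UMI in CA1 and none in the other 6 classes, and Grin3b reached at most 6.46 CPM in any sum; neither was tested. A further list of 29 other genes of the glutamate synapse (scaffolds, vesicular and membrane transporters, enzymes) was counted in the same fits.

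In the excitatory fields, CA1 against granule cells gave 23 differing members, 14 higher and 9 lower, with 46.8% of all genes tested passing in this contrast. The median log2 fold change of the members was 0.18, against -0.02 over all genes. CA3 against granule cells gave 24 members, 12 higher and 12 lower, beside 49% of all genes, with medians of 0.06 for members and -0.01 for all genes. CA3 against CA1 gave 20 members, 8 higher and 12 lower, beside 31.9% of all genes, with medians of -0.22 and 0.01. CA2 against the mean of CA1 and CA3 gave 13 members, 5 higher and 8 lower, beside 17.8% of all genes, with medians of -0.10 and -0.06. Kainate receptor genes made up 3 of the 8 members higher in CA3 than in CA1 and 0 of the 12 lower, while all 3 NMDA receptor genes that differed there were lower in CA3. In the fit without the sample as a block, the count for CA1 against granule cells was 14 members in place of 23.

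Inhibitory and glial cells were compared next. Interneurons against the mean of the 4 excitatory classes gave 31 differing members, 17 higher and 14 lower, beside 58.3% of all genes, with medians of 0.29 for members and 0.04 for all genes. Precursors against the mean of the 5 neuron classes gave 27 members, 8 higher and 19 lower, beside 51.9% of all genes, with medians of -0.60 and -0.02. Astrocytes against the same mean gave 30 members, 5 higher and 25 lower, beside 52.7% of all genes, with medians of -1.51 and -0.09. Precursors against astrocytes gave 20 members, 17 higher and 3 lower, beside 30.5% of all genes, with medians of 0.69 and 0.08. Interneurons were also split by their own markers into a medial type (Lhx6, Sst, Pvalb and Satb1; 1381 cells) and a caudal type (Adarb2, Vip, Htr3a and Npas1; 1002 cells), named for the ganglionic eminences. Medial-type against caudal-type interneurons gave 21 differing members of 30 tested, 12 higher and 9 lower, beside 24.1% of all genes, with medians of 0.00 and -0.01.

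**Figure D1:**
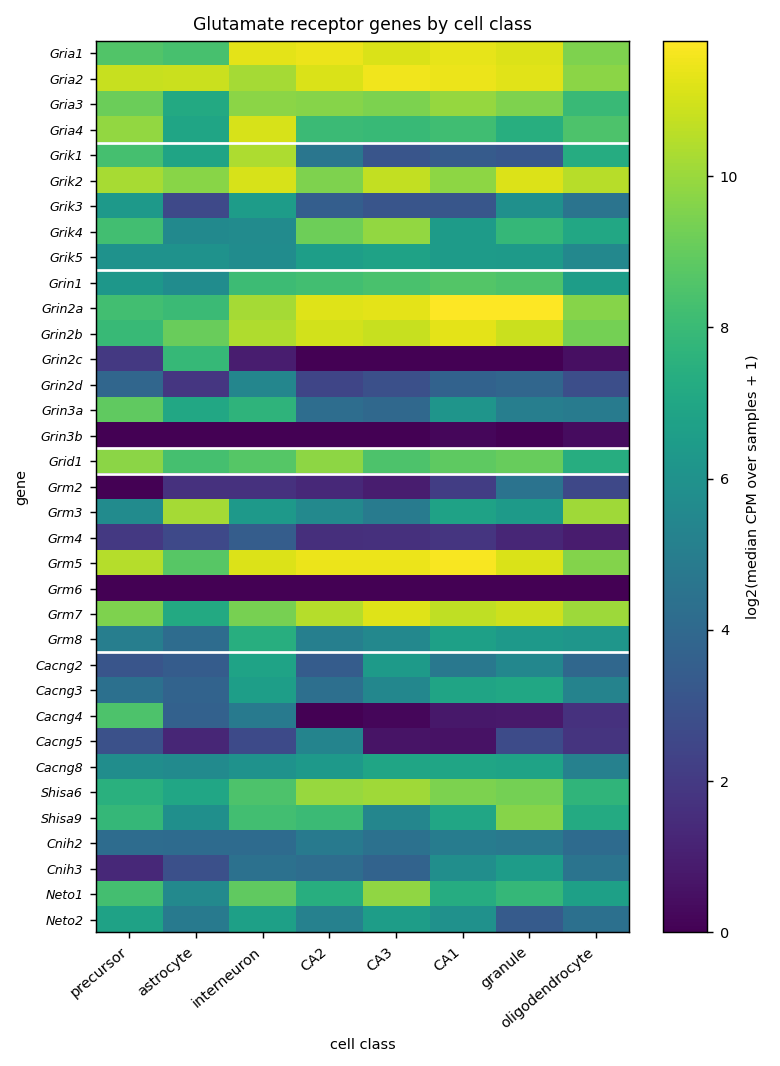
Each row is 1 of the 35 genes and each column a cell class; colour gives log2 of the median CPM over samples plus 1, and white lines part the receptor families from AMPA (top) to auxiliary subunits (bottom). Grin2c is bright only in astrocytes, and Cacng4 is brightest in precursors. Grik1 is brightest in interneurons and dimmest in the excitatory classes, with precursors, oligodendrocytes and astrocytes between. Grm6 and Grin3b are near 0 throughout.

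Of the 4 AMPA receptor genes, 1 was higher and 1 lower in interneurons than in the excitatory classes. Gria2, the lower one, encodes GluA2, the subunit whose edited form keeps the channel closed to calcium. The 6 interneuron sums held 1037 CPM (lowest), 1169 CPM (median) and 1285 CPM (highest) of Gria2, against 2039.5 to 2961 CPM in CA2, 2532 to 3295 CPM in CA3, 2381 to 3172 CPM in CA1 and 2243 to 2732 CPM in granule cells. No interneuron sum reached the lowest excitatory one, and the interneuron level was also below every precursor sum (1598 to 1835 CPM) and every astrocyte sum (1657 to 2569 CPM). The difference from the excitatory classes was -1.36 ± 0.08 (edgeR adjusted p = 2.3e-22). Gria4, which encodes GluA4, ran the other way, at 2045, 2145 and 2231 CPM (lowest, median, highest) in interneurons, against 187 to 327 CPM in CA2, 211 to 271 CPM in CA3, 225 to 318 CPM in CA1 and 134 to 218 CPM in granule cells. That difference was 3.05 ± 0.08 (edgeR adjusted p = 3.9e-38), and the groups did not overlap.

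Gria1 encodes GluA1, the subunit that activity can drive to the synapse, and Gria3 encodes GluA3. Neither passed the threshold between interneurons and excitatory classes (-0.09 ± 0.12, edgeR adjusted p = 0.54, for Gria1). Within interneurons both differed by type. Gria1 had 2476, 3156 and 4930.2 CPM (lowest, median, highest) in medial-type interneurons, against 966, 1289.9 and 1785 CPM in the caudal type, a difference of 1.35 ± 0.06 (edgeR adjusted p = 3.3e-18). Gria3 had 1024, 1238 and 1794 CPM in the medial type, against 198, 276 and 422 CPM in the caudal type, a difference of 2.18 ± 0.07 (edgeR adjusted p = 1.2e-20). For both genes every medial-type sum lay above every caudal-type sum. Gria2 had 1079.6 to 1316 CPM in the medial type and 949 to 1301 CPM in the caudal type, and was not past the threshold (0.09 ± 0.06, edgeR adjusted p = 0.30). Between fields, Gria3 was higher in CA1 than in granule cells (0.55 ± 0.11) and lower in CA3 than in CA1 (-0.45 ± 0.11).

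The counts do not read RNA editing, by which the glutamine codon of the channel pore (the Q/R site) of Gria2, Grik1 and Grik2 transcripts is recoded. The genomic stretch around that codon is shown for these 3 genes and for the other AMPA genes, so that the subunits can be compared at the site, with the codon in capitals. In the genome all 6 codons encode glutamine. The letters were taken 5′ to 3′ on the coding strand from the GENCODE transcripts of GRCm38.
Gria1: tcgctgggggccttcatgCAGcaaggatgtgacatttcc
Gria2: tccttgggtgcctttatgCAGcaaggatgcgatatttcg
Gria3: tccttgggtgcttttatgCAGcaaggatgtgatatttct
Gria4: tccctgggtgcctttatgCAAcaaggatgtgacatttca
Grik1: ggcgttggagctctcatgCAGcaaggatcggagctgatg
Grik2: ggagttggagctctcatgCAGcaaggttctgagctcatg
The Gria1 stretch lies at chr11:57243076-57243114 (plus strand, exon 11), Gria2 at chr3:80706893-80706931 (minus strand, exon 11), Gria3 at chrX:41610247-41610285 (plus strand, exon 11) and Gria4 at chr9:4464119-4464157 (minus strand, exon 12). The Grik1 and Grik2 stretches each span an exon junction on the minus strand, within chr16:87936102-87940562 and chr10:49240783-49244349. Gria2 and Gria3 share 36 of the 39 bases, Gria1 and Gria2 share 32, and Grik1 and Grik2 share 35, while Gria2 and Grik2 share 22.

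**Figure D2:**
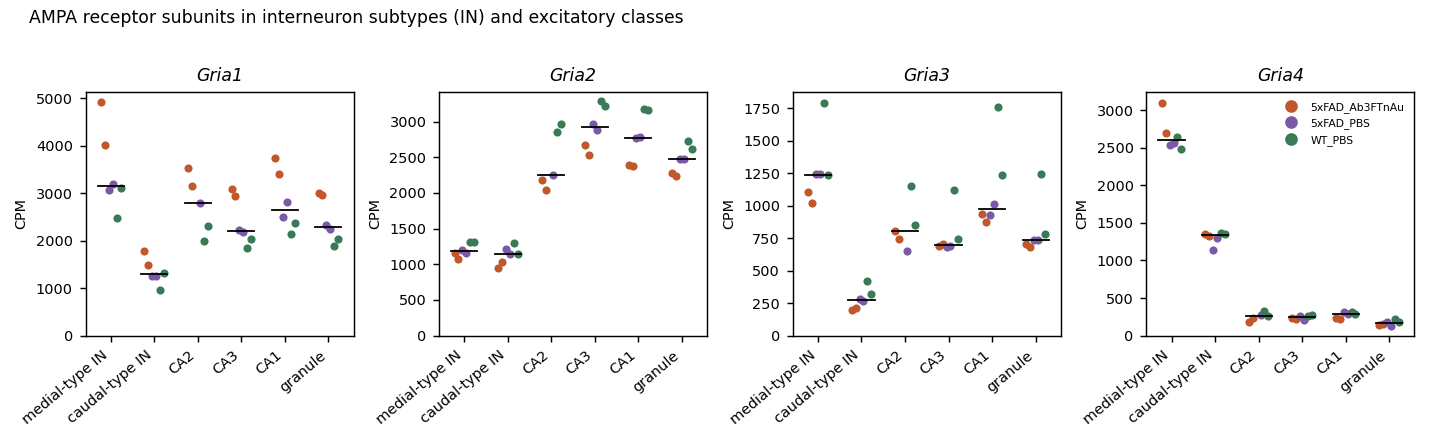
CPM of the 4 AMPA subunit genes (panels) in medial-type and caudal-type interneurons (IN), CA2, CA3, CA1 and granule cells; each point is 1 sample, coloured by group, and bars are medians. Gria2 is lower in both interneuron types than in every excitatory class, Gria4 is higher, and Gria1 and Gria3 part the medial type from the caudal type.

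Kainate receptor genes separated the fields by subunit. Grik1 encodes GluK1 and was at 1238, 1285 and 1493 CPM (lowest, median, highest) in interneurons, against at most 53.7 CPM in any CA2, CA3, CA1 or granule sum. Pooled over samples the interneuron level was 127 times the excitatory one (95% counting interval 117 to 138; 18820 and 599 UMIs). Precursors held 257 to 430.3 CPM of Grik1. The oligodendrocyte class held 96.0 to 226 CPM, below all precursor sums, and interneurons lay above both. A class set against a mean of several classes is set against the mean of their log2 levels, so that Grik1 counted as higher in precursors than in the neuron mean (3.10 ± 0.15) although interneurons held more.

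Grik4 encodes GluK4, a high-affinity subunit. It had 714, 942 and 1077 CPM (lowest, median, highest) in CA3, against 68.2, 87.4 and 103 CPM in CA1, a difference of 3.41 ± 0.10 (edgeR adjusted p = 7.2e-36). CA2 was next at 418 to 705 CPM and granule cells followed at 214 to 275 CPM. Interneurons were lowest among neurons at 47.8 to 63.5 CPM (-2.76 ± 0.10 against the mean of the excitatory classes, edgeR adjusted p = 5.3e-33). None of these 5 ranges overlapped. Grik3, which encodes GluK3, had 4.48, 7.81 and 10.5 CPM in CA1, against 40.5, 59.2 and 79.3 CPM in granule cells (-2.82 ± 0.15, edgeR adjusted p = 4.1e-24). Its levels in interneurons (67.3 to 99.8 CPM) and precursors (62.6 to 142 CPM) overlapped that of granule cells. Grik2, which encodes GluK2, had 774 to 1036 CPM in CA1 and 1569 to 1929 CPM in CA3, against 2025 to 2576 CPM in granule cells, all differing (-1.25 ± 0.08 for CA1 and -0.25 ± 0.08 for CA3 against granule cells). Grik5, the partner subunit GluK5, varied least of the 5, from 50.1 to 119 CPM over all neuron sums, and was higher in CA3 than in CA1 (0.39 ± 0.07, edgeR adjusted p = 1.8e-05).

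The Neto proteins are auxiliary subunits of kainate receptors, and Neto1 also binds NMDA receptors. Neto1 had 798, 899.9 and 1026 CPM (lowest, median, highest) in CA3, against 135, 157 and 168 CPM in CA1 (2.60 ± 0.11, edgeR adjusted p = 2.6e-28) and 195 to 246 CPM in granule cells. Neto2 had 71.7, 93.3 and 105 CPM in CA3 and 40.7, 60.9 and 68.6 CPM in CA1, against 4.93, 9.45 and 14.6 CPM in granule cells. Neto2 was thus higher in both fields than in granule cells (3.44 ± 0.15 for CA3 and 2.71 ± 0.16 for CA1, edgeR adjusted p = 1.8e-27 and 4.4e-22). CA2 had less of both than the mean of its neighbours (-1.08 ± 0.13 for Neto1 and -0.74 ± 0.20 for Neto2).

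Among the NMDA receptor genes, the common subunits came first. Grin1 encodes GluN1, which every NMDA receptor contains. Its range was 324 to 556 CPM in CA1, against 299 to 509 CPM in granule cells, overlapping, with a difference of 0.21 ± 0.09 (edgeR adjusted p = 0.040). Grin2a, which encodes GluN2A, had 2387 to 4147 CPM in CA1, against 2334 to 3678 CPM in granule cells, and did not pass the threshold (0.18 ± 0.18, edgeR adjusted p = 0.43). Grin2b, which encodes GluN2B, had 2467, 2525 and 2673 CPM in CA1, against 1694, 1829 and 1914 CPM in granule cells (0.58 ± 0.13, edgeR adjusted p = 0.00022), without overlap. All 3 genes were lower in interneurons than in the excitatory classes (-0.59 ± 0.07, -1.43 ± 0.16 and -0.82 ± 0.11).

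The other NMDA subunits were read in fewer classes or at graded levels. Grin2c encodes GluN2C. Astrocytes held 115, 234 and 274 CPM (lowest, median, highest), against at most 2.52 CPM in any neuron sum, and its UMIs numbered 365 in astrocytes and 27 in the 5 neuron classes. The pooled astrocyte level was 561 times that of the neurons (95% counting interval 379 to 863). Precursors had at most 6.26 CPM and oligodendrocytes at most 1.79 CPM. Grin2d, which encodes GluN2D, had 38.4, 41.3 and 49.7 CPM in interneurons, against at most 15.3 CPM in the excitatory sums (2.18 ± 0.10, edgeR adjusted p = 2.4e-26). Grin3a encodes GluN3A, a subunit that lowers calcium entry. Its levels ran in the order precursors (369 to 522 CPM), interneurons (167 to 223 CPM), CA1 (61.6 to 109 CPM) and granule cells (25.9 to 40.7 CPM), none of which overlapped, with CA3 (9.36 to 20.6 CPM) and CA2 (8.95 to 22.7 CPM) lowest and overlapping each other. Astrocytes held 81.8 to 292 CPM of Grin3a and overlapped interneurons and CA1. The contrast of CA3 against CA1 was -2.34 ± 0.15 (edgeR adjusted p = 9.4e-20), and that of precursors against the neuron mean 3.17 ± 0.11 (edgeR adjusted p = 1.7e-33).

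Grid1 encodes the delta receptor GluD1, which holds synapses together through cerebellin and neurexin and does not open to glutamate in the usual way. CA2 had 743, 890.4 and 925 CPM (lowest, median, highest of 5 sums), against 321 to 402 CPM in CA3 and 399 to 513 CPM in CA1. Every CA2 sum was above every CA1 and CA3 sum, and the difference from their mean was 1.11 ± 0.08 (edgeR adjusted p = 1.2e-16). Precursors, at 699 to 1039 CPM, overlapped CA2. Medial-type interneurons had 245 to 338 CPM, against 452 to 634 CPM in the caudal type (-0.91 ± 0.07, edgeR adjusted p = 8.0e-13).

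Metabotropic receptor genes split into widely read and narrowly read ones. Grm5 encodes mGlu5, a postsynaptic receptor coupled to Gq, and had 2929, 3252 and 3813 CPM in CA1, against 1944, 2223 and 2476 CPM in granule cells (0.66 ± 0.12, edgeR adjusted p = 7.5e-06), without overlap. Grm7 encodes mGlu7, a presynaptic receptor. It had 2253, 2352 and 2655 CPM in CA3, against 1444, 1623 and 1727 CPM in CA1 (0.65 ± 0.12, edgeR adjusted p = 7.8e-06), and 549 to 762 CPM in interneurons, below all excitatory sums (-1.63 ± 0.11, edgeR adjusted p = 1.9e-20). Grm8, another presynaptic receptor gene, had 56.0 to 171 CPM in the medial type, against 169 to 340.4 CPM in the caudal type, ranges that overlapped by a narrow margin (-1.28 ± 0.12, edgeR adjusted p = 1.8e-10). Grm4 stayed under 20 CPM in every sum of the 7 classes and was higher in interneurons (7.71 to 12.4 CPM; 2.13 ± 0.23).

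Grm2 and Grm3 encode the paired mGlu2 and mGlu3 receptors. Grm2 had 15.6, 21.5 and 30.6 CPM (lowest, median, highest) in granule cells, and at most 5.74 CPM in any sum of the other 6 classes. The oligodendrocyte class held 2.98 to 10.5 CPM of it. CA1 against granule cells was -2.67 ± 0.20 (edgeR adjusted p = 8.3e-18) and CA3 against granule cells -3.67 ± 0.25 (edgeR adjusted p = 2.7e-19). Grm3 was highest in astrocytes at 1119, 1187 and 1425 CPM, against at most 130.2 CPM in any neuron sum (3.88 ± 0.12, edgeR adjusted p = 7.8e-36). The oligodendrocyte class, with 963 to 1222 CPM of Grm3, overlapped astrocytes, while precursors had 29.1 to 176 CPM.

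Auxiliary subunits of AMPA receptors marked several fields. TARPs, encoded by the Cacng genes, bring AMPA receptors to the surface and slow their closing. Cacng5 (γ5) had 26.9, 38.7 and 47.3 CPM in the 5 CA2 sums, against at most 1.59 CPM in CA3 and 1.98 CPM in CA1. The pooled CA2 level was 52.9 times that of CA1 and CA3 together (95% counting interval 33.9 to 85.7; 99 and 25 UMIs), and granule cells had 3.52 to 7.39 CPM. Cacng2, which encodes stargazin (γ2), ran the other way at 5.27 to 26.8 CPM in CA2, against 58.7 to 95.9 CPM in CA3 and 21.9 to 29.8 CPM in CA1 (-1.78 ± 0.21, edgeR adjusted p = 1.1e-09), and CA2 overlapped CA1. Cacng3 (γ3) had 1.76 to 40.3 CPM in CA2 and 35.4 to 59.7 CPM in CA3, below the 112 to 136 CPM of CA1. CA2 against the mean of both was -2.13 ± 0.25 and CA3 against CA1 was -1.35 ± 0.11 (edgeR adjusted p = 3.6e-10 and 1.0e-15). Cacng8 (γ8), the TARP for which the hippocampus is known, had 71.0 to 125 CPM in CA2, 94.1 to 135 CPM in CA3, 106 to 149 CPM in CA1 and 98.2 to 132 CPM in granule cells, all overlapping. CA2 was below the mean of its neighbours (-0.41 ± 0.11, edgeR adjusted p = 0.0060), and interneurons, at 50.8 to 75.8 CPM, were below the mean of the excitatory classes (-0.96 ± 0.07, edgeR adjusted p = 2.7e-17).

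Cacng4 (γ4) was a gene of precursors. Their sums held 324, 358 and 494 CPM, against 13.0 to 34.4 CPM in interneurons and at most 4.76 CPM in the excitatory sums. Pooled, precursors were 66.1 times the neurons (95% counting interval 58.9 to 74.3), and interneurons were 37.9 times the excitatory classes (27.3 to 53.9). Astrocytes had 2.87 to 25.0 CPM, well under the precursor range.

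Shisa proteins and cornichons are other partners of AMPA receptors. Shisa9 (CKAMP44) had 40.3, 41.1 and 70.6 CPM in CA3 and 86.8, 123 and 168 CPM in CA1, against 522, 806 and 918 CPM in granule cells, with no overlap of the 3 classes. CA3 against granule cells was -3.85 ± 0.12 (edgeR adjusted p = 4.3e-34). CA2, at 125 to 304 CPM, was above the mean of CA1 and CA3 (1.71 ± 0.13, edgeR adjusted p = 4.9e-16), and the medial type, at 116 to 244 CPM, was below the caudal type, at 351 to 780.1 CPM (-1.79 ± 0.11, edgeR adjusted p = 4.5e-14). Shisa6 had 996 to 1406 CPM in CA3, against 582 to 971 CPM in CA1 (0.70 ± 0.10), and 325 to 430.2 CPM in interneurons, under all excitatory sums (-1.39 ± 0.09). Cnih3 had 7.96, 12.7 and 16.1 CPM in CA3, against 51.3, 55.5 and 81.8 CPM in CA1 (-2.20 ± 0.16, edgeR adjusted p = 1.5e-17), with granule cells at 73.2 to 106 CPM. Cnih2 stayed between 11.6 and 85.6 CPM in all neuron sums, and WT_PBS sample 1 was the highest sum in each of the 5 neuron classes.

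**Figure D3:**
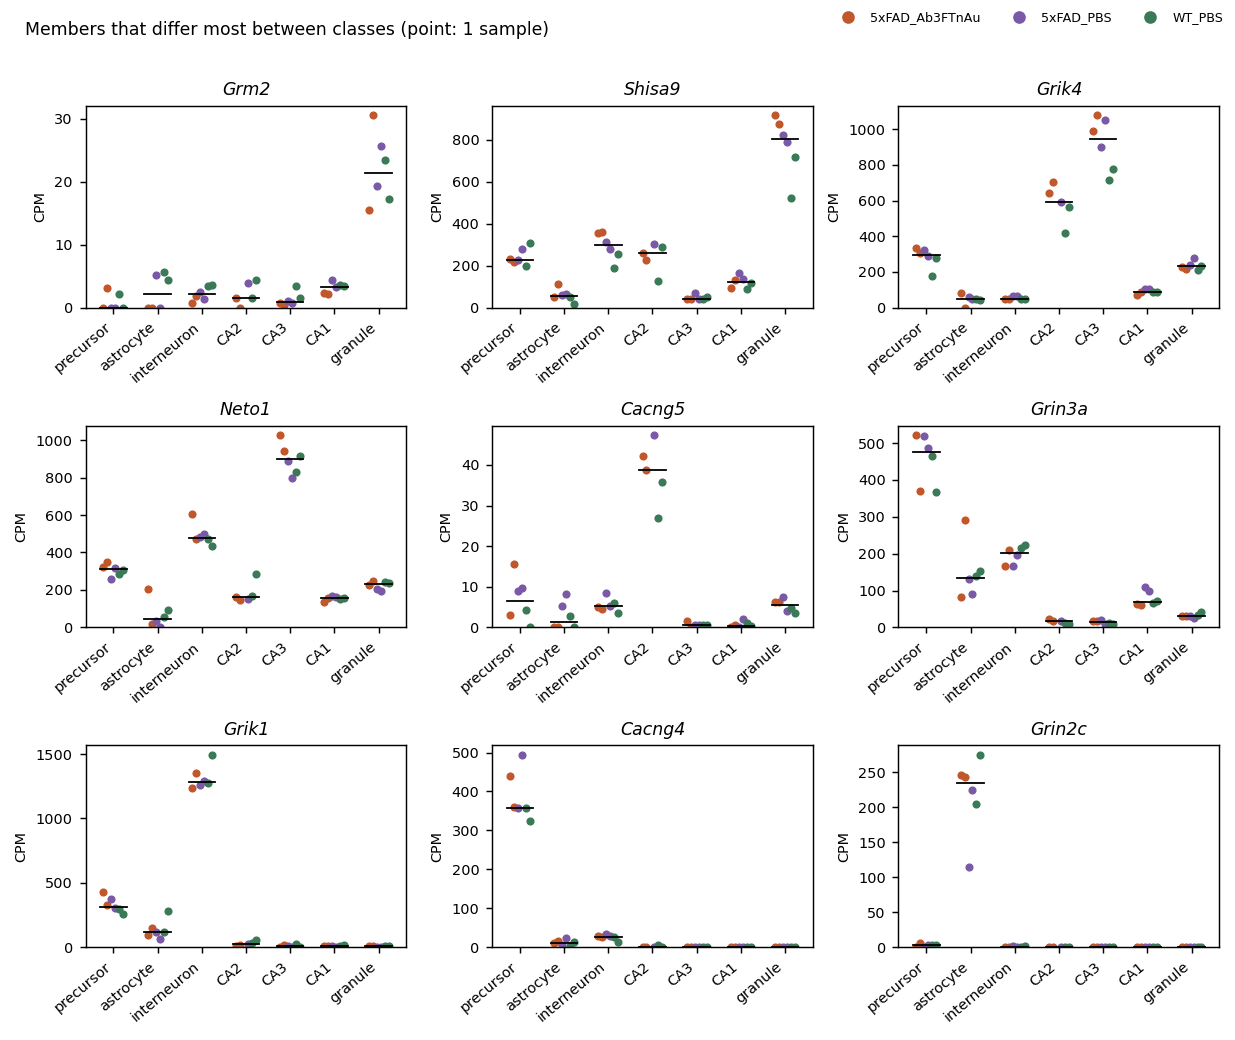
CPM of 9 members (panels) by cell class; each point is 1 sample, coloured by group, and bars are medians. Grm2 and Shisa9 are highest in granule cells, Grik4 and Neto1 in CA3, Cacng5 in CA2, Grik1 in interneurons, Grin3a and Cacng4 in precursors and Grin2c in astrocytes, in samples of all 3 groups.

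For 3 of these class-bound members the promoter, the 250 bases before the transcript start, is shown so that their sequences can be set beside their narrow levels. They are from RefSeq on GRCm38.p6, 5′ to 3′ on the gene's strand, with matches to searched motifs in capitals.
Grm2: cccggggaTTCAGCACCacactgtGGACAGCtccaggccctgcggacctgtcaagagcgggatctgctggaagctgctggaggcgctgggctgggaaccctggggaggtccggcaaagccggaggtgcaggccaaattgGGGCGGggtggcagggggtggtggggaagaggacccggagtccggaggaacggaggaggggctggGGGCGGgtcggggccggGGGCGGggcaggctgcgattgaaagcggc
Cacng5: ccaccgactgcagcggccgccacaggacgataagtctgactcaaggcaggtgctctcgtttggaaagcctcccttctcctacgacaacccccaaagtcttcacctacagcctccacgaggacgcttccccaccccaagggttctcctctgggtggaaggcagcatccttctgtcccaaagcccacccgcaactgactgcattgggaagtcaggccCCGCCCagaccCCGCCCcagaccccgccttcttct
Grin2c: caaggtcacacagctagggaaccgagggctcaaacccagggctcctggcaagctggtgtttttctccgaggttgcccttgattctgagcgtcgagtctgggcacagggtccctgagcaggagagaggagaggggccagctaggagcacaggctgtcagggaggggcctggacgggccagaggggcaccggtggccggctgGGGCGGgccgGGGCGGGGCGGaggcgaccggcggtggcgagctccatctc
They lie on the minus strand at chr9:106656110-106656359 (Grm2), chr11:107915056-107915305 (Cacng5, the entry that adjoins the annotated gene start) and chr11:115267244-115267493 (Grin2c). The motifs searched, on both strands, were both parts of the RE1 element bound by the repressor REST (TTCAGCACC and GGACAGC), the GC box (GGGCGG), the cyclic AMP response element (TGACGTCA), the TATA box (TATAAA) and the E-box (CAGCTG); neighbouring GC boxes in Grin2c overlap. Both RE1 parts were found in Grm2, and they occur in 0.301% and 5.28% of the 32851 RefSeq promoters of the same length. The GC box was found in all 3 promoters shown and occurs in 32.7% of all promoters. A second Cacng5 entry, at chr11:107911363-107911612 and not shown, held none of the searched motifs. Promoters were matched for 22 of the 35 members (27 promoters). Of these promoters, 13 held a GC box, 1 the first RE1 part and 2 the second RE1 part. The TATA box was in 1, the E-box in 2 and the cyclic AMP element in 0. Over all promoters these last motifs occur in 12.4%, 13.0% and 1.55%, in that order. The matches describe letters and not binding.

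Glial levels were read beside the oligodendrocyte class. In precursors 13 members were above the oligodendrocyte class in every sum: Gria2, Gria3, Gria4, Grik1, Grik3, Grik4, Grin2d, Grin3a, Grid1, Grm5, Cacng4, Neto1 and Neto2. In astrocytes 3 members were, Gria2, Grin2c and Grin3a. In precursors 21 members overlapped the oligodendrocyte class and 1 was below it, and in astrocytes 28 overlapped and 4 were below. The share of all genes above it is not given here, so these counts describe the members only. Gria1 and Grin2a were above it in neither class. Gria1 had 152 to 692 CPM in precursors and 150.0 to 549 CPM in astrocytes, against 226 to 839 CPM in oligodendrocytes, and Grin2a had medians of 300.2 CPM and 261 CPM, against 814 CPM. The part of neuronal RNA in these levels of Gria1 and Grin2a was not tested, and a level below that of oligodendrocytes cannot decide it. In bulk sums such as these, fewer cells with a transcript and less RNA per cell cannot be told apart.

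Of the 29 other glutamate synapse genes, 21 differed between CA1 and granule cells (11 higher, 10 lower), led by the scaffolds Homer2 (2.66 ± 0.11) and Homer1 (1.68 ± 0.08). CA3 against granule cells gave 21 (12 higher, 9 lower), led by Homer3 (2.48 ± 0.12) and the glutamate transporter gene Slc1a2 (1.72 ± 0.10). CA3 against CA1 gave 18 (9 higher, 9 lower), led by the same 2 genes (2.99 ± 0.13 and 2.44 ± 0.11). CA2 gave 12 (6 higher, 6 lower), led by Homer2 (1.43 ± 0.12) and Shank2 (0.80 ± 0.08). In interneurons 26 differed (7 higher, 19 lower), led by Grip1, which binds GluA2 and GluA3 (3.66 ± 0.08), and the vesicular transporter gene Slc17a7 (-4.02 ± 0.09). Precursors differed from neurons in 25 (6 higher, 19 lower), led by Slc1a3 (4.16 ± 0.16) and Camk2a (-2.96 ± 0.13). Astrocytes differed from neurons in 26 (6 higher, 20 lower), led by Slc1a2 (5.60 ± 0.07) and Slc1a3 (7.56 ± 0.10), of which Slc1a3 helped to set the astrocyte class. Precursors against astrocytes gave 14 (10 higher, 4 lower), led by Slc1a2 (-4.34 ± 0.12) and Slc1a3 (-3.40 ± 0.12). The 2 interneuron types differed in 12 of 26 tested (5 higher, 7 lower), led by Dlgap1 (0.87 ± 0.06) and Dlgap2 (0.81 ± 0.06).

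The 3 groups were then compared within each class, to ask whether receptor genes differ in 5×FAD mice and after Aβ3FTnAu. The 3 comparisons share their groups, each with 2 samples, and are given side by side. In all, 190 pairs of member and class passed the filter on low counts, between 19 in astrocytes and 31 in interneurons. For 5xFAD_Ab3FTnAu against WT_PBS 6 pairs passed the threshold, 5 higher and 1 lower (55 at an unadjusted p under 0.05). Over all genes, 2073 of 70240 pairs of gene and class passed. Genes at that unadjusted p numbered 1040 of 6507 in precursors, 375 of 3687 in astrocytes and 3632 of 13035 in interneurons. They numbered 1617 of 8681 in CA2, 3075 of 12225 in CA3, 3674 of 12985 in CA1 and 3274 of 13120 in granule cells. Called genes of all those tested made up 0.0154% in precursors, 0% in astrocytes, 6.02% in interneurons, 4.42% in CA2, 1.69% in CA3, 2.93% in CA1 and 2.41% in granule cells. For 5xFAD_PBS against WT_PBS edgeR called 0 pairs (30 at an unadjusted p under 0.05; DESeq2 called 2), with 0.0457% of all genes called in granule cells, 0.0154% in precursors and 0% in the other 5 classes. Genes at that unadjusted p numbered 734 in precursors, 208 in astrocytes, 744 in interneurons and 492 in CA2. CA3 had 861, CA1 954 and granule cells 1237, of the same numbers tested. For 5xFAD_Ab3FTnAu against 5xFAD_PBS edgeR called 0 pairs (20 at an unadjusted p under 0.05; DESeq2 called 2), with 0.192% of all genes called in interneurons, 0.0245% in CA3, 0.0115% in CA2 and 0% in the other 4 classes. Genes at that unadjusted p numbered 567 in precursors, 226 in astrocytes, 1998 in interneurons and 583 in CA2. CA3 had 1673, CA1 2102 and granule cells 1747, again of the same numbers tested. The counts depended on single libraries, and the fits with 1 library left out gave widely different numbers. The share of all genes called in those fits is not given here.

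Gria1 accounted for 4 of the 6 called pairs. These pairs are classes of the same libraries and are not separate observations. In granule cells it had 2997 and 2959 CPM in 5xFAD_Ab3FTnAu, 2339 and 2251 CPM in 5xFAD_PBS, and 1894 and 2039 CPM in WT_PBS. In CA1 it had 3740.2 and 3402 CPM in 5xFAD_Ab3FTnAu, 2496 and 2807 CPM in 5xFAD_PBS, and 2136 and 2366 CPM in WT_PBS. In CA3 it had 3091 and 2944 CPM in 5xFAD_Ab3FTnAu, 2231 and 2179.9 CPM in 5xFAD_PBS, and 1840.2 and 2027 CPM in WT_PBS. In all 3 classes both samples given Aβ3FTnAu were above both 5xFAD_PBS samples, and these were above both WT_PBS samples. In CA2 it had 3528 and 3161 CPM in 5xFAD_Ab3FTnAu, 2795 CPM in the 1 sum of 5xFAD_PBS that was kept, and 1992 and 2304 CPM in WT_PBS, in the same order. In interneurons it had 3654 and 3119 CPM in 5xFAD_Ab3FTnAu, 2517 and 2575 CPM in 5xFAD_PBS, and 1988 and 2515 CPM in WT_PBS, again without overlap.

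For 5xFAD_Ab3FTnAu against WT_PBS the Gria1 differences were 0.74 ± 0.13 in CA2 (edgeR adjusted p = 0.0087), 0.64 ± 0.11 in CA3 (0.041), 0.67 ± 0.12 in CA1 (0.047) and 0.58 ± 0.09 in granule cells (0.046). Interneurons had 0.62 ± 0.16 and missed the threshold (edgeR adjusted p = 0.051). Against 5xFAD_PBS the 5xFAD_Ab3FTnAu samples had 0.43 ± 0.11 in CA3, 0.44 ± 0.12 in CA1 and 0.36 ± 0.09 in granule cells (edgeR adjusted p = 0.19, 0.19 and 0.23). For 5xFAD_PBS against WT_PBS the difference was 0.48 ± 0.16 in CA2 and 0.22 ± 0.09 in granule cells (edgeR adjusted p = 0.87 and 0.48). With the sample number as a block, the calls in CA3, CA1 and granule cells were lost (edgeR adjusted p = 0.084, 0.077 and 0.081). Leaving out either sample of 5xFAD_Ab3FTnAu or of 5xFAD_PBS also ended those 3 calls (edgeR adjusted p between 0.12 and 0.31), and leaving out 5xFAD_Ab3FTnAu sample 1 or using DESeq2 ended the call in CA2 (adjusted p = 0.12 and 0.078). Every one of these alternatives left the difference positive, between 0.50 and 0.91 over the 4 classes. The oligodendrocyte class had 839 and 838 CPM of Gria1 in 5xFAD_Ab3FTnAu, 449.6 and 226 CPM in 5xFAD_PBS, and 659 and 776 CPM in WT_PBS, a different order of groups.

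Gria3 in CA1 was the 1 pair that was lower. It had 936 and 873 CPM in 5xFAD_Ab3FTnAu, 927 and 1011 CPM in 5xFAD_PBS, and 1757 and 1233 CPM in WT_PBS. Both WT_PBS sums were above the other 4, and WT_PBS sample 1 stood highest. The difference was -0.71 ± 0.14 for 5xFAD_Ab3FTnAu against WT_PBS (edgeR adjusted p = 0.047) and -0.62 ± 0.14 for 5xFAD_PBS against WT_PBS (0.67). Without WT_PBS sample 1 the first of these was -0.49, and over all alternatives it lay between -0.91 and -0.49. Leaving out either sample of 5xFAD_Ab3FTnAu or of 5xFAD_PBS, or adding the sample number as a block, ended the call (edgeR adjusted p between 0.077 and 0.31). Gria2, the partner of both, had 2391 and 2381 CPM in CA1 in 5xFAD_Ab3FTnAu, 2767 and 2779.6 CPM in 5xFAD_PBS, and 3172 and 3167 CPM in WT_PBS, an order opposite to that of Gria1 and without overlap. It did not pass the threshold (-0.40 ± 0.10 for 5xFAD_Ab3FTnAu against WT_PBS, edgeR adjusted p = 0.057).

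Shisa9 in interneurons was the sixth pair. It had 358 and 362 CPM in 5xFAD_Ab3FTnAu, 314 and 281 CPM in 5xFAD_PBS, and 192 and 257 CPM in WT_PBS, with no overlap. The difference was 0.72 ± 0.18 for 5xFAD_Ab3FTnAu against WT_PBS (edgeR adjusted p = 0.049). In all, 10 alternatives, among them the stricter class rule, ended that call. The difference was 0.48 without WT_PBS sample 1 and 0.98 without WT_PBS sample 2, the lowest and the highest of all alternatives. In granule cells, where Shisa9 was highest, the sums were 918 and 878 CPM in 5xFAD_Ab3FTnAu, 824 and 789 CPM in 5xFAD_PBS, and 522 and 716 CPM in WT_PBS (0.52 ± 0.15, edgeR adjusted p = 0.082). Grin2a followed the same order in CA1, with 4109.8 and 4147 CPM in 5xFAD_Ab3FTnAu, 3427 and 3653 CPM in 5xFAD_PBS, and 2387 and 3318 CPM in WT_PBS, and did not pass the threshold (0.53 ± 0.17, edgeR adjusted p = 0.099). Of the 29 other synapse genes, 2 of 24 tested passed in CA2 (Shank2 and Dlgap2), beside 4.42% of all genes. In interneurons 1 of 27 tested passed (Dlgap2), beside 6.02% of all genes. All 3 results were higher in 5xFAD_Ab3FTnAu than in WT_PBS.

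**Figure D4:**
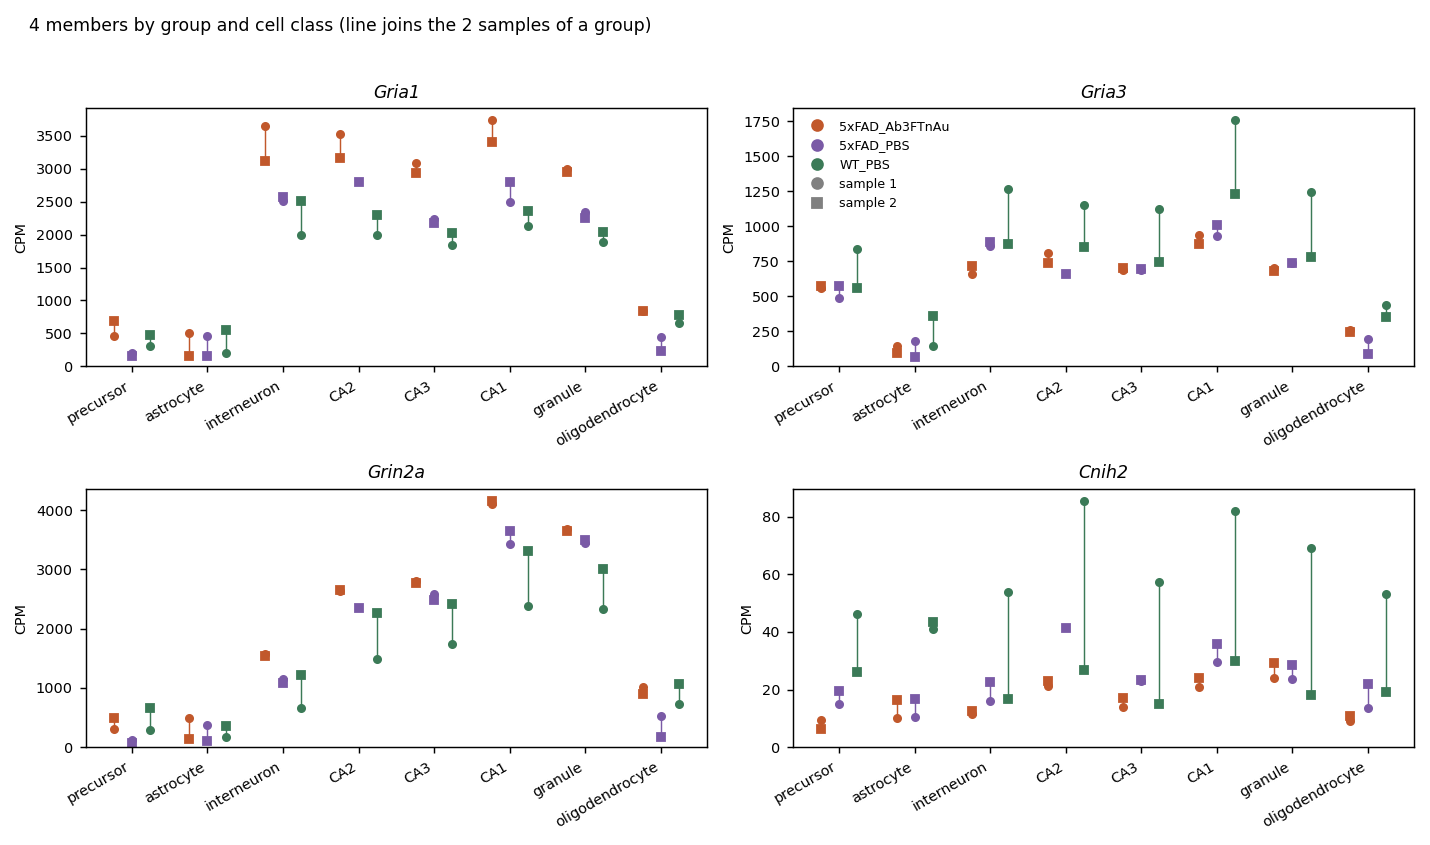
CPM of Gria1, Gria3, Grin2a and Cnih2 (panels) in each class and in oligodendrocytes, by group; a line joins sample 1 (circle) and sample 2 (square) of a group. Gria1 sits highest in 5xFAD_Ab3FTnAu in all neuron classes, and the long WT_PBS lines of Cnih2 and Gria3 show how far the 2 wild-type libraries lie apart.

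The smallest p-values of the 2 comparisons without a call were mostly in precursors. For 5xFAD_PBS against WT_PBS they were Grin2a in precursors (-2.32 ± 0.43, edgeR adjusted p = 0.090), Grik3 in granule cells (0.87 ± 0.16, 0.15) and Grin2b in precursors (-1.63 ± 0.34, 0.11). For 5xFAD_Ab3FTnAu against 5xFAD_PBS they were Gria1 in precursors (1.67 ± 0.29, edgeR adjusted p = 0.15), Grin2a in precursors (2.08 ± 0.44, 0.23) and Grin3a in CA1 (-0.73 ± 0.15, 0.14). Grin2a in precursors had 307 and 492 CPM in 5xFAD_Ab3FTnAu, 122 and 61.3 CPM in 5xFAD_PBS, and 293 and 654 CPM in WT_PBS, so that 5xFAD_PBS was lowest. The summed level of 6 neuron markers (Snap25, Syt1, Rbfox3, Slc17a7, Stmn2 and Nrgn) in the same precursor sums was 750 and 1377 CPM in 5xFAD_Ab3FTnAu, 553 and 468 CPM in 5xFAD_PBS, and 1146 and 1638 CPM in WT_PBS, also lowest in 5xFAD_PBS. Grin2b had 212 and 373 CPM in 5xFAD_Ab3FTnAu, 134 and 93.6 CPM in 5xFAD_PBS, and 274 and 454 CPM in WT_PBS. Gria1 had 459 and 692 CPM in 5xFAD_Ab3FTnAu, 202 and 152 CPM in 5xFAD_PBS, and 306 and 469.7 CPM in WT_PBS. For both genes 5xFAD_PBS was again lowest. Among barcodes without a mitochondrial UMI, 5xFAD_PBS against WT_PBS gave 0.41 for Grin2a and 0.23 for Grin2b in precursors, the opposite sign, but only 18.5% of 119 and 5.26% of 133 precursors of 5xFAD_PBS were of that kind, and 1 sum of 5xFAD_PBS had the 20 cells needed. The part of neuronal RNA in these precursor differences was not tested.

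**Figure D5:**
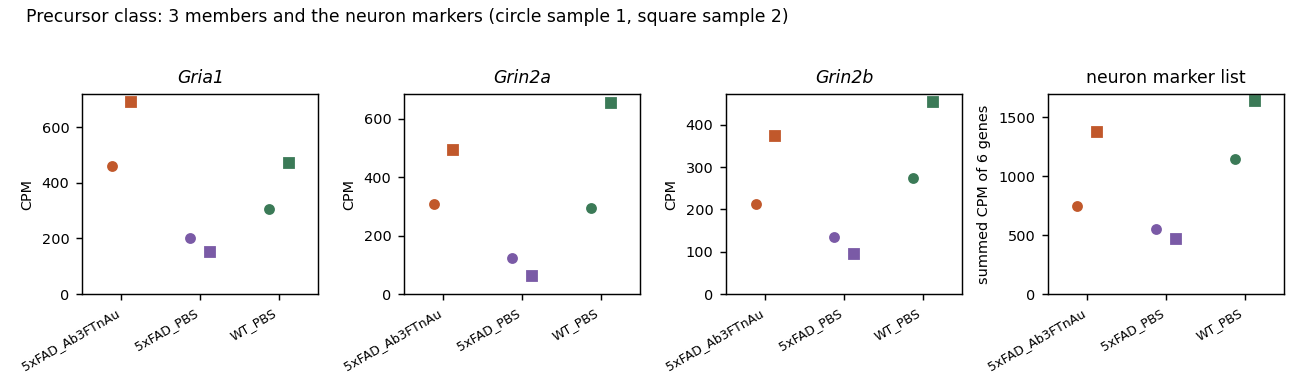
CPM of Gria1, Grin2a and Grin2b and the summed CPM of the 6 neuron markers in the precursor class by group (circle, sample 1; square, sample 2). In all 4 panels both 5xFAD_PBS samples lie under the other 4.

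Grik3 in granule cells had 53.1 and 65.3 CPM in 5xFAD_Ab3FTnAu, 71.5 and 79.3 CPM in 5xFAD_PBS, and 40.5 and 42.3 CPM in WT_PBS. Grin3a in CA1 had 62.4 and 61.6 CPM in 5xFAD_Ab3FTnAu, 109 and 98.5 CPM in 5xFAD_PBS, and 66.2 and 72.4 CPM in WT_PBS. For both genes the 5xFAD_PBS samples were highest and did not overlap the other groups, and neither difference passed the threshold. Cacng4 in precursors and Grin2c in astrocytes were called in none of the 3 comparisons, with differences of 0.23 ± 0.21 and -0.02 ± 0.38 for 5xFAD_Ab3FTnAu against WT_PBS.

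Whether a group difference in CA1, CA3 or interneurons departed from that in granule cells was tested with a class by group term. For 5xFAD_PBS against WT_PBS 3 members' results were called, Grm3 and Grin3a in CA1, where 0.667% of all genes were called, and Grm3 in interneurons (0.714%), and 0 in CA3 (0.364%; 6 members at an unadjusted p under 0.05). Over all genes, 955 of 14844 had that unadjusted p in CA3. For 5xFAD_Ab3FTnAu against 5xFAD_PBS 1 was called, Grin2a in interneurons (0.344%), and 0 in CA1 (0.101%; 7 at that p) and CA3 (0.0741%; 3 at that p). Over all 14844 genes, 1105 had that unadjusted p in CA1 and 864 in CA3. With DESeq2, 1 result of a member was called over the 6 contrasts, in place of 4. Grm3 against granule cells differed by 0.96 ± 0.17 in CA1, and Grin3a by 0.93 ± 0.20. All 4 calls were lost when certain single libraries were left out.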

How the data were processed

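The deposited files hold raw UMI counts per gene and barcode in 6 libraries, which the authors produced using Cell Ranger 7.1.0 (per the file headers); the mouse build mm10 and Seurat 4.3.0.1 are named in the submitters' processing notes. No cell annotation was used here. Barcodes were kept from 500 genes and 1000 UMIs upward if no more than 15% of UMIs were mitochondrial (44736 of 50224), and 3080 with the highest Scrublet scores were removed as doublets (0.8% per 1000 cells; scanpy 1.11.5), which left 41656. Marker genes of 13 lists were scaled per gene (log of counts per 10000, z capped at 5) and averaged. A cell took a class with a score of at least 0.6, a margin of 0.4 over the next list and 2 detected markers; CA2 also needed a UMI of Amigo2 or Map3k15, a condition added after the markers were seen. Other cells (20046, 48.1%, without a class) were left out.

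Counts were summed per sample and class (at least 20 cells) and tested with edgeR 4.0.16 (quasi-likelihood, TMM, filterByExpr, Benjamini-Hochberg over all genes, threshold 0.05), with the sample as a block between classes and with the group alone between groups. SE is the log2 fold change divided by the root of F. The test was checked on simulated counts. DESeq2 1.42.0, other normalization, filters, class rules, barcode kinds and left-out samples were alternatives (18 settings). The members and lists were chosen with earlier results of these data known. Members named by value in a class contrast were the 2 largest rises and falls past the threshold with at least 20 CPM, and members whose role in the class is told; between groups, every member past the threshold, or the 3 with the smallest p. Counting intervals (95%, exact) and levels of few UMIs cover counting error only. Pooled ratios are of summed counts.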

Additional observations from a re-analysis of the deposited data

Results flagged for a closer look

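Whether the group difference in one class differed from that in granule cells was tested with a class by group term in edgeR, adjusted over all genes, for CA1, CA3 and interneurons in 2 comparisons of groups. In these 6 contrasts between 0.0741% and 0.714% of all genes were called, and 4 results of members were.

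For 5xFAD_PBS against WT_PBS, the difference of Grm3 in CA1 was above that in granule cells by 0.96 ± 0.17 (SE, log2; edgeR adjusted p = 0.00073). Grm3 had 130.2 and 95.5 CPM in 5xFAD_PBS and 91.7 and 121 CPM in WT_PBS in CA1, and 73.9 and 50.0 CPM in 5xFAD_PBS and 107 and 115 CPM in WT_PBS in granule cells. The groups overlapped in CA1 and did not overlap in granule cells. Without WT_PBS sample 1 the value was 0.77 and the call was lost (edgeR adjusted p = 0.070). In interneurons the difference of Grm3 was above that in granule cells by 0.84 ± 0.19 (edgeR adjusted p = 0.018), with 65.4 and 72.6 CPM in 5xFAD_PBS and 62.5 and 90.7 CPM in WT_PBS. That value was 0.45 without 5xFAD_PBS sample 2 and 0.60 without WT_PBS sample 1, where the call was lost (edgeR adjusted p = 0.81 and 0.49), as it was with DESeq2 (adjusted p = 0.13). Oligodendrocytes, which hold much Grm3, gave summed marker levels in the granule sums of 156.5 and 176 CPM in 5xFAD_PBS and 247 and 332.5 CPM in WT_PBS; their part in the Grm3 result was not tested.

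For the same comparison the difference of Grin3a in CA1 was above that in granule cells by 0.93 ± 0.20 (edgeR adjusted p = 0.0081). Grin3a had 109 and 98.5 CPM in 5xFAD_PBS and 66.2 and 72.4 CPM in WT_PBS in CA1, and 32.3 and 25.9 CPM in 5xFAD_PBS and 34.8 and 40.7 CPM in WT_PBS in granule cells. No group overlapped in either class, and the order of the groups was opposite. The call was lost without 5xFAD_PBS sample 2 (edgeR adjusted p = 0.11), without WT_PBS sample 1 (0.13) and with DESeq2 (0.12).

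For 5xFAD_Ab3FTnAu against 5xFAD_PBS the difference of Grin2a in interneurons was above that in granule cells by 0.47 ± 0.11 (edgeR adjusted p = 0.040). Grin2a had 1567 and 1535 CPM in 5xFAD_Ab3FTnAu and 1155 and 1086 CPM in 5xFAD_PBS in interneurons, and 3678 and 3643 CPM in 5xFAD_Ab3FTnAu and 3449.9 and 3491 CPM in 5xFAD_PBS in granule cells. The call was lost without any 1 of these 4 libraries (edgeR adjusted p between 0.12 and 0.39), with the size factors of DESeq2 in edgeR (0.071) and with DESeq2 (0.19).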

How the results depend on the processing

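Called class contrasts were called with the opposite sign under 1 alternative only, the stricter cell filter, where 3 astrocyte sums were left. There Grm8 in astrocytes (0.89), and Grin1 (-0.71) and Shisa6 (-0.77) in precursors against astrocytes, turned round. Changes of sign that missed the threshold were not counted. The count for CA1 against granule cells was 14 without the sample block (23 with it), and that for CA2 was 8 with barcodes holding a mitochondrial UMI only (13 in all). Counts between groups moved more. The share of all genes called under each alternative is not given here. The counts below therefore cannot show whether members moved more than other genes. For 5xFAD_PBS against WT_PBS (0) they were 2 with doublets kept, 10 under the stricter cell filter, 5 under the stricter class rule, 3 with equal cells, 2 with DESeq2, 18 without the low-count filter, and 0 to 50 with 1 sample left out (13 without WT_PBS sample 1, 50 without sample 2). For 5xFAD_Ab3FTnAu against 5xFAD_PBS (0) they were 1 with doublets kept, 4 under the stricter cell filter, 1 in barcodes without a mitochondrial UMI, 2 with DESeq2, 12 without the low-count filter, and 0 to 26 with 1 sample left out (23 without WT_PBS sample 1, 26 without sample 2). For 5xFAD_Ab3FTnAu against WT_PBS (6) they were 11 with doublets kept, 16 under the stricter cell filter, 17 under the stricter class rule, 21 in barcodes without and 3 in barcodes with a mitochondrial UMI, 3 with equal cells, 44 without the low-count filter, and 0 to 66 with 1 sample left out. Differences of effects between classes (4) were 1 with DESeq2, 7 without the low-count filter and 1 to 5 with 1 sample left out (1 without 5xFAD_PBS sample 2, 2 without WT_PBS sample 1). In barcodes without a mitochondrial UMI, Grin2a (0.41) and Grin2b (0.23) in precursors reversed for 5xFAD_PBS against WT_PBS, where 1 sum of 5xFAD_PBS was left. The cause was not tested. With 1 sample left out, the lone sample of its group is assumed to vary like the other groups.

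Sample numbers were not taken to pair the samples. Deviations of same-numbered samples correlated between -0.17 and -0.0042, which gave no sign of pairing but cannot exclude it. With the number as a replicate block, 2 pairs were called for 5xFAD_Ab3FTnAu against WT_PBS (6 without it) and 0 for the other comparisons. With the WT_PBS numbers crossed, a pairing chosen after seeing the data like the barcodes with a mitochondrial UMI, the counts were 15 for 5xFAD_Ab3FTnAu against WT_PBS, 1 for 5xFAD_PBS against WT_PBS and 0 for 5xFAD_Ab3FTnAu against 5xFAD_PBS. Depth limits members of few UMIs (Grm2, Grm4, Cacng5, Grin2d), CA2 sums of few cells and glial sums.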
